A study of Mus musculus with 4 samples.

Results

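Glycolysis and the handling of its end product lactate were followed through 32 genes in nuclei of the mouse hypothalamus. The 32 genes were given as a named list of glucose transporters, glycolytic enzymes, lactate dehydrogenases, monocarboxylate transporters and regulators of pyruvate entry into mitochondria. The rule used no measured value, but the list was chosen with earlier results of these data known. All 32 were found among the 32285 gene rows of the deposited matrices. Aldoa was carried by 2 rows, which were summed, and the second row added 131 unique molecular identifiers (UMIs, tags that mark single captured transcripts).

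The study profiled single nuclei from micropunches of the paraventricular nucleus (PVN), a hypothalamic centre of neuroendocrine, stress and feeding control, with a droplet assay that reads the 3' ends of transcripts. All mice were males of the C57Bl6 strain, 10 weeks old per the sample labels and 10 to 12 weeks per the series text, with no genetic change named. They were sampled at zeitgeber time (ZT) 8 or ZT20, hours counted from lights on, and each library held nuclei of 5 pooled PVNs isolated on a sucrose gradient. There were 2 libraries at each time. The labels leave unsaid if replicate libraries were made from different mice, and every p-value below measures only the spread between these libraries, which may be technical. With pooled tissue in each library, differences between animals cannot be seen.

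The deposited matrices listed 6453 and 6923 barcodes at ZT8 and, at ZT20, 8320 and 9413. Total UMIs were between 57970649 and 69223344 per library. Pairs of libraries shared 10 to 25 barcodes. Nuclei were clustered without the 32 genes and without other genes of the pathway, and clusters were called by a cell type with "-like" from its marker genes. There were 427, 399, 435 and 405 astrocyte-like nuclei, in the order ZT8 replicates 1 and 2, then ZT20 replicates 1 and 2, and 2382, 2551, 2843 and 2755 neuron-like nuclei. In astrocyte-like nuclei the 10 astrocyte markers summed to 9229.6 and 9346 CPM at ZT8 and 9265 and 9759 CPM at ZT20, against 345 and 343 CPM at ZT8 and 265 and 257 CPM at ZT20 in neuron-like nuclei. CPM are a gene's UMIs scaled to the total UMIs of a class in a library, and they compare one gene between classes or times, not one gene with another. Many of the neurons were thalamic-like, with 1264, 1379, 775 and 723 nuclei in the order of the libraries, against 23, 11, 55 and 44 PVN-like nuclei, so neuron-like values describe the PVN with its surroundings. The largest cluster had few UMIs per barcode (a median of 806 to 923 per library) and was given no name, and it held 1478 and 1640 barcodes at ZT8 and 2959 and 4022 at ZT20.

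Glycolysis splits glucose into pyruvate in the cytosol, yielding ATP without oxygen. Pyruvate is then reduced to lactate by lactate dehydrogenase or carried into mitochondria for oxidation, a step that pyruvate dehydrogenase kinases hold back. In brain, glucose crosses the blood-brain barrier through GLUT1 and enters neurons mainly through GLUT3. Astrocytes are known for active glycolysis and for the release of lactate, which neurons can take up through the transporter MCT2 and oxidise, an exchange known as the lactate shuttle.

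The 32 genes lie on 15 chromosomes. Promoters were read for 30 of them, in 47 annotated starts, from RefSeq sequences of the build GRCm38.p6; Slc2a3 and Slc16a7 had no entry. In the 250 bases before each start, on both strands, the E-box CACGTG, which clock factors of the CLOCK and BMAL1 type can bind, was found in 6 of 47 starts (12.8%), against 6.02% of all 32851 promoters of that length and 6.63% of the 21262 of protein-coding genes. The shorter words ACGTG, on the one hand, and GCGTG, on the other, are cores of the hypoxia response element. They were found in 19 (40.4%) and 26 (55.3%) of the 47 starts, against 16.6% and 28.2% of all promoters. Each E-box also holds the first core, on both strands. At least one of the 2 cores was present in 37 of 47 starts (78.7%), against 38.6% of all promoters and 44.0% of protein-coding ones. A match of letters is a description and no binding site, and starts of one gene can overlap.

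The promoters of 4 genes are printed because of the comparison of times. Ldha and Aldoc were called higher at ZT20 in neuron-like nuclei, but lost these calls when an estimate of free RNA was subtracted. Gpi1 and Pfkfb2 kept their calls there under every alternative that was run. Each stretch is the 250 bases before a RefSeq start, written 5′ to 3′ on the gene's strand, with the 3 words in capitals on either strand. The stretches are chr7:46845554-46845803 (plus strand) for Ldha, chr11:78322823-78323072 (plus) for Aldoc, chr7:34230337-34230586 (minus) for Gpi1 and chr1:130715822-130716071 (minus) for Pfkfb2.
Ldha: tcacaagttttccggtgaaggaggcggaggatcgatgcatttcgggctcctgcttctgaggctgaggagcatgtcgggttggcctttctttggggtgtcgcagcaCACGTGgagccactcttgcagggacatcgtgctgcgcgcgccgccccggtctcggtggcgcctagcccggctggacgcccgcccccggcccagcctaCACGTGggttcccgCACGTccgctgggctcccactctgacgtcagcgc
Aldoc: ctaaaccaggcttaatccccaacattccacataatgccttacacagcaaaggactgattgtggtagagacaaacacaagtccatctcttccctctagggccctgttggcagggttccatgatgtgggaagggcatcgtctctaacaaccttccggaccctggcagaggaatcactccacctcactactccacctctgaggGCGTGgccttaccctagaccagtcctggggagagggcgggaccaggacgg
Gpi1: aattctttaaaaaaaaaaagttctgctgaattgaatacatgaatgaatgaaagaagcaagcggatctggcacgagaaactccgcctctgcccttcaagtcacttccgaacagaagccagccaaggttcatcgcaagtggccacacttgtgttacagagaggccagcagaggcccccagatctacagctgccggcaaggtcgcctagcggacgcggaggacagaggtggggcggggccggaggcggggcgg
Pfkfb2: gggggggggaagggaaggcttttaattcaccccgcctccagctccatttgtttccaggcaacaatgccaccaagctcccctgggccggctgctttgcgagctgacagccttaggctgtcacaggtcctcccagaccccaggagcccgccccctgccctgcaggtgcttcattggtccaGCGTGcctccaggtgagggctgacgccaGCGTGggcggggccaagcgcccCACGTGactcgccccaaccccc
The Ldha stretch holds the E-box 2 times and the Pfkfb2 stretch 1 time. Both genes have other annotated starts, not printed, and none of those stretches holds the E-box. The Gpi1 stretch holds none of the words searched, in this window and at this start.

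Barcodes with few UMIs were rich in glycolysis transcripts. The 32 genes together made up 6795 and 6545 CPM at ZT8 and 6826 and 6831 CPM at ZT20 in the cluster with few UMIs, against 1587 and 1619 CPM at ZT8 and 1664 and 1658 CPM at ZT20 in neuron-like nuclei. The same barcodes held ribosomal protein transcripts at 28032 and 28132 CPM at ZT8 and 39485 and 40951 CPM at ZT20, against 3419 and 3518 CPM at ZT8 and 4919 and 4965 CPM at ZT20 in neuron-like nuclei. Of the 29 genes with at least 5 CPM in neuron-like nuclei, 23 were higher in the low-UMI cluster in all 4 libraries and 1 was lower in all 4. The same count was not made over all genes, so it has no background to be read against. The median ratio of the low-UMI level to the neuron-like level was 4.13 over the 29 genes. Over all 12115 genes at that level it was 1.05.

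**Figure D1:**
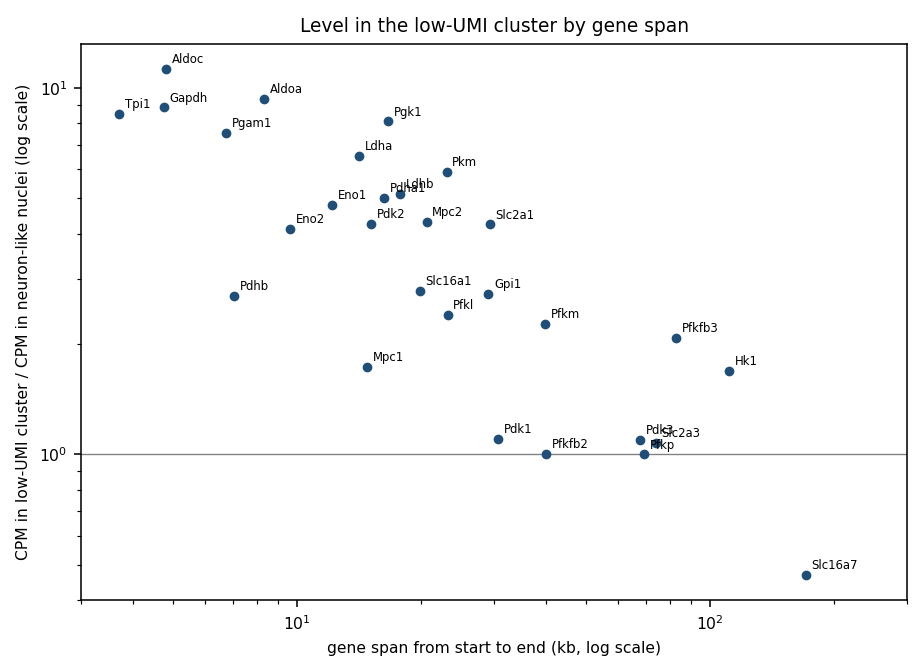
Ratio of the level (CPM, mean of 4 libraries) in the low-UMI cluster to that in neuron-like nuclei (y axis, log scale) against gene span from start to end in kilobases (x axis, log scale), 1 point per gene for the 29 genes with at least 5 CPM in neuron-like nuclei. Short genes such as Aldoc, Aldoa, Gapdh and Tpi1 lie highest, and Slc16a7, the longest, lies below 1. Aldoa is placed at 8.32 kb, the span of its row with 131 UMIs, also in the correlation given in the text. Its row with 46961 UMIs spans 5.52 kb.

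Shorter genes tended to stand relatively higher in these barcodes. Aldoc spans 4.81 kb and stood 11.2 times as high as in neuron-like nuclei, Tpi1 (3.71 kb) 8.50 times and Gapdh (4.75 kb) 8.84 times. Slc16a7, with 170.2 kb the longest, stood at 0.468 of its neuron-like level, and Pfkp (69.0 kb) at 1.00. Spearman's rho between this ratio and the span was -0.81 across the 29 genes and -0.55 across the 12115 genes, as a description across genes, which are not independent replicates and share the same libraries.

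The low-UMI cluster served as an estimate of free RNA in droplets. Transcripts of the neuronal genes Slc17a6, Gad1, Gad2 and Slc32a1 found in astrocyte-like nuclei placed free RNA at 20.5 to 21.8% of the UMIs there. These genes are neuronal, so the share in neuron-like nuclei could not be read from them. Free UMIs per neuron-like nucleus were assumed equal to the mean of astrocyte-, oligodendrocyte-, oligodendrocyte precursor- and microglia-like nuclei. Under this assumption, which was not tested, the estimate in neuron-like nuclei was 5.30 to 6.44%. With these shares, free RNA would give a median of 48.4% of the measured level of the 32 genes in astrocyte-like nuclei, with a range from 3.58% for Pdk4 to 108% for Slc16a7. In oligodendrocyte-like nuclei the median was 72.9% and in neuron-like nuclei 24.5%. For the haemoglobin gene Hbb-bs the same estimate came to 336% of the level found in astrocyte-like nuclei, so it is not an exact image of the free RNA, and these shares are estimates made after the data had been seen.

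**Figure D2:**
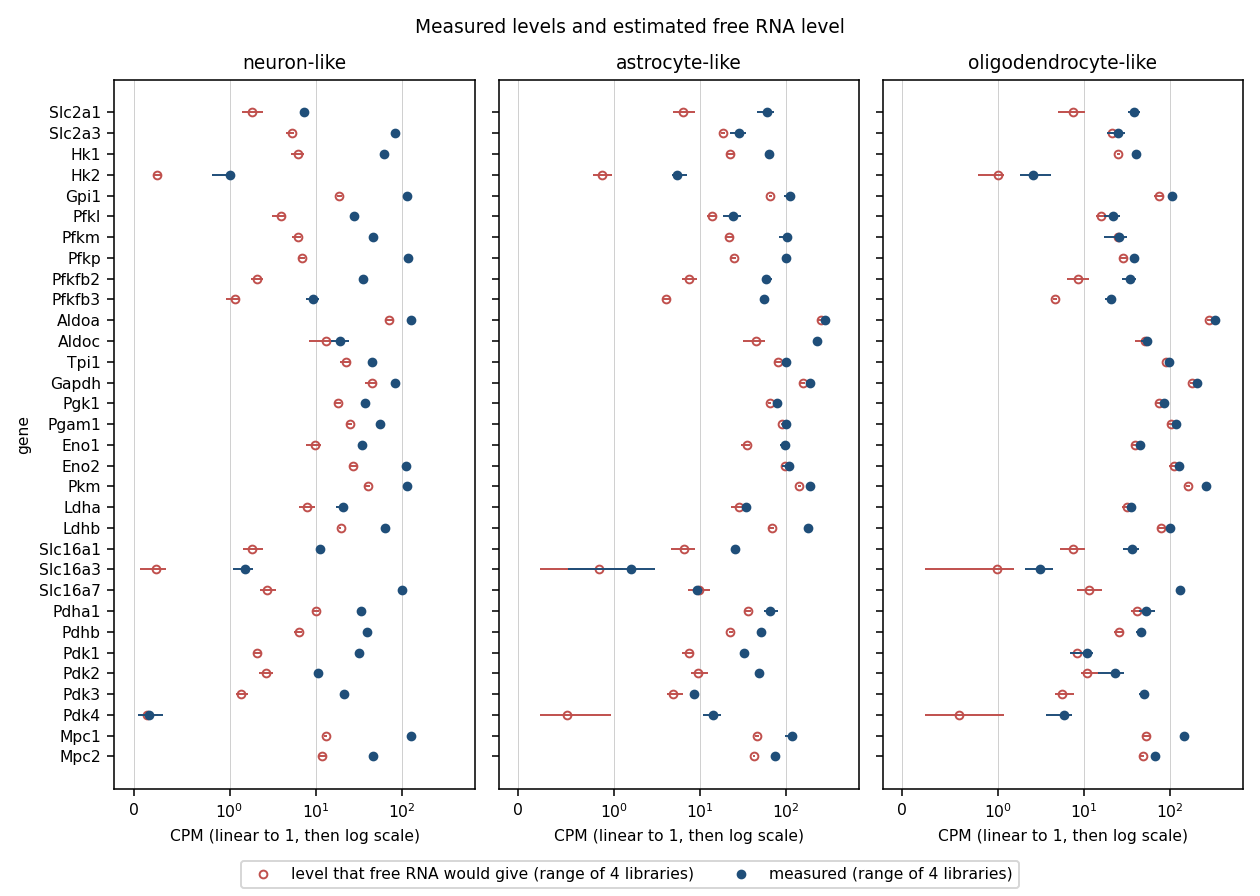
Measured level of each gene (filled blue circles, mean, with the range of 4 libraries) and the level that the free RNA estimate would give (open red circles, with its range) in neuron-like, astrocyte-like and oligodendrocyte-like nuclei, in CPM on an axis that is linear to 1 and then logarithmic. In astrocyte-like nuclei the circles nearly meet for Aldoa, Pgam1 and Eno2 and stay apart for Slc2a1, Pfkfb3, Aldoc and Pdk4.

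Astrocyte-like and neuron-like nuclei were compared within each library to ask which genes of the pathway stood higher in which class. Of the 32 genes, 20 were higher and 8 lower in astrocyte-like nuclei by edgeR's quasi-likelihood test at an adjusted p under 0.05. This difference is called for 63.4% of all genes tested, so a call alone says little here. The ranges of the classes did not overlap for 25 of 32, against 58.6% of all genes. The median log2 difference was 0.59 over the 32 genes and -0.11 over all genes. With the free RNA profile subtracted in both classes, 11 were higher and 12 lower, the median was -0.21, and 51.5% of all genes were called. Of the genes called without this subtraction, the 7 whose direction turned were Aldoa, Tpi1, Gapdh, Pgk1, Pgam1, Pkm and Ldha. 17 genes kept their call and direction in every alternative run. The genes are described by their place in the pathway.

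**Figure D3:**
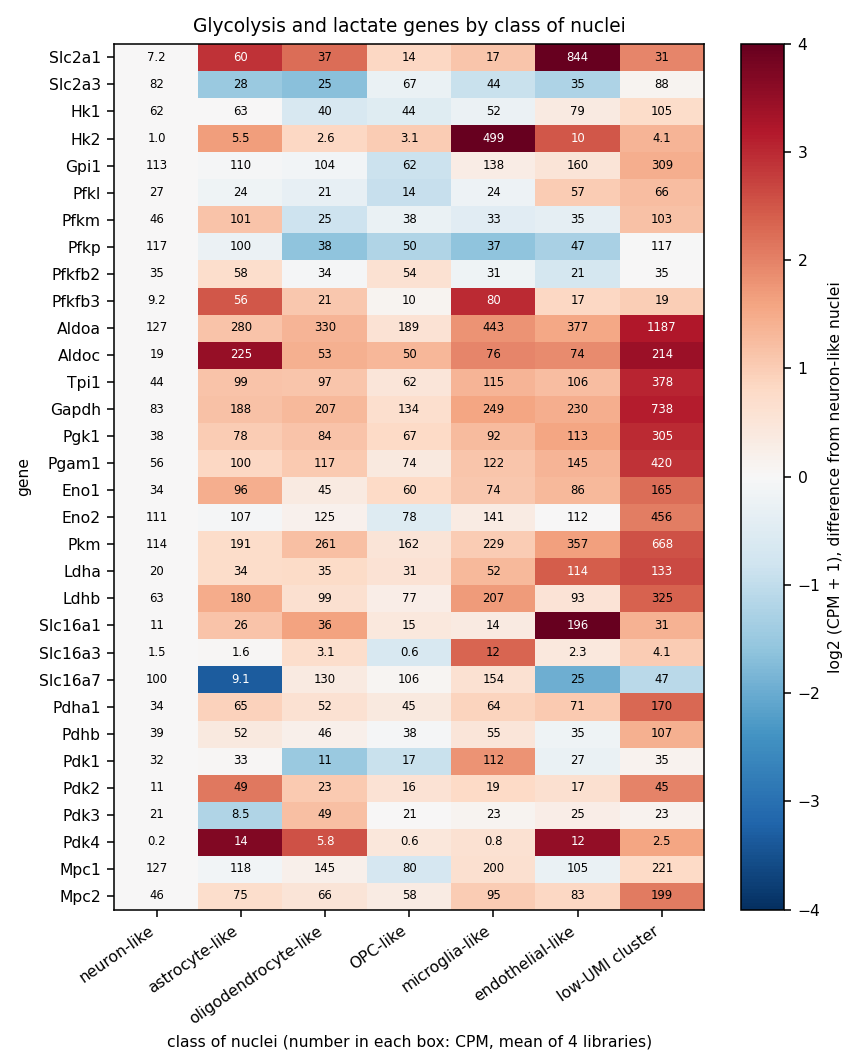
Level of the 32 genes in 6 classes of nuclei and in the low-UMI cluster. The number in each box is the mean CPM of 4 libraries, and the colour the difference in log2 (CPM + 1) from neuron-like nuclei. Slc2a1 and Slc16a1 were highest in endothelial-like, Hk2 and Pdk1 in microglia-like, and Pdk4 and Pdk2 in astrocyte-like nuclei.

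The glucose transporters took opposite sides. Slc2a1, which encodes GLUT1 of the blood-brain barrier and of astrocytes, stood at 58.5 and 46.4 CPM at ZT8 and 63.2 and 72.6 CPM at ZT20 in astrocyte-like nuclei and at 6.54 and 7.0 CPM at ZT8 and 7.20 and 8.07 CPM at ZT20 in neuron-like nuclei. The ranges did not overlap, and the log2 difference was 2.85 ± 0.12 (SE, edgeR adjusted p = 7.64e-24). Slc2a3, the neuronal GLUT3, had 77.3 and 79.8 CPM at ZT8 and 84.3 and 85.8 CPM at ZT20 in neuron-like nuclei and 34.0 and 34.4 CPM at ZT8 and 22.1 and 23.2 CPM at ZT20 in astrocyte-like nuclei, a log2 difference of -1.74 ± 0.10 (SE, edgeR adjusted p = 2.49e-18). Free RNA would give 65.2% of the astrocyte-like Slc2a3 level and 10.7% of the Slc2a1 level there. Slc2a1 was far higher again in endothelial-like nuclei, the lining of vessels, with 929.9 and 682 CPM at ZT8 and 946 and 819.8 CPM at ZT20 from 233, 253, 127 and 158 UMIs. Those nuclei numbered only 53, 67, 30 and 36, so their levels are given without a test.

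Hexokinases trap glucose as glucose 6-phosphate. Hk1, the common brain form, had 60.4 to 62.8 CPM in neuron-like and 61.1 to 65.3 CPM in astrocyte-like nuclei, ranges that overlapped, and was not called. With free RNA subtracted Hk1 was called lower in astrocyte-like nuclei (-0.37 ± 0.11, edgeR adjusted p = 0.0169). Hk2, the inducible form, was highest in microglia-like nuclei, the macrophages of the brain, at 390.0 and 540.4 CPM at ZT8 and 539.7 and 524 CPM at ZT20, from 122, 184, 177 and 173 UMIs. The mean over the libraries was 1.02 CPM in neuron-like nuclei and 10.2 CPM in endothelial-like nuclei. The astrocyte-like level of Hk2, 7.16 and 5.16 CPM at ZT8 and 4.74 and 4.76 CPM at ZT20, was above the neuron-like one by 2.20 ± 0.37 on the log2 scale (SE, edgeR adjusted p = 1.46e-06). With 1676564 to 1899227 UMIs per library in this class, these levels rest on few UMIs. The part of RNA from microglia in them was not tested. Free RNA would give 0.243% of the microglia-like level. Gpi1, which turns glucose 6-phosphate into fructose 6-phosphate, had overlapping ranges in the 2 classes and a log2 difference of -0.24 ± 0.08 (SE, edgeR adjusted p = 0.00524), a call lost without ZT20 replicate 2.

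Phosphofructokinase, the committed step, is built from muscle, liver and platelet subunits. Pfkm, the muscle type, stood at 81.7 and 117 CPM at ZT8 and 103 and 102 CPM at ZT20 in astrocyte-like nuclei and at 45.4 and 43.9 CPM at ZT8 and 46.7 and 46.3 CPM at ZT20 in neuron-like nuclei, a log2 difference of 0.94 ± 0.08 (SE, edgeR adjusted p = 4.94e-13). Another gene, Gm26513, overlaps Pfkm on the same strand. Pfkp, the platelet type, was lower in astrocyte-like nuclei (log2 difference -0.43 ± 0.08, SE, edgeR adjusted p = 6.1e-06), with 92.9 to 106 CPM against 112 to 121 CPM, and in oligodendrocyte-like nuclei it had 35.3 to 40.4 CPM. Pfkl, the liver type, had overlapping ranges and a log2 difference of -0.39 ± 0.12 (SE, edgeR adjusted p = 0.00567), a call also lost without ZT20 replicate 2.

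Pfkfb2 and Pfkfb3 make fructose 2,6-bisphosphate, the strongest activator of phosphofructokinase. Pfkfb3, known in mouse brain as abundant in astrocytes and kept low in neurons, stood at 53.1 and 51.0 CPM at ZT8 and 61.1 and 58.9 CPM at ZT20 in astrocyte-like nuclei and at 7.63 and 7.81 CPM at ZT8 and 10.4 and 11 CPM at ZT20 in neuron-like nuclei. The log2 difference was 2.41 ± 0.12 (SE, edgeR adjusted p = 3.52e-22), and free RNA would give 7.18% of the astrocyte-like level. Microglia-like nuclei had 105 and 85.2 CPM at ZT8 and 79.3 and 51.5 CPM at ZT20. Pfkfb2 was higher in astrocyte-like nuclei by 0.52 ± 0.09 (SE, edgeR adjusted p = 5.14e-06), with 52.1 to 68.0 CPM against 32.3 to 38.3 CPM.

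Among the aldolases, which split the six-carbon sugar, Aldoc is a known astrocyte marker. It stood at 237 and 235 CPM at ZT8 and 210.1 and 217 CPM at ZT20 in astrocyte-like nuclei and at 15.1 and 15.1 CPM at ZT8 and 24.0 and 22.0 CPM at ZT20 in neuron-like nuclei, a log2 difference of 3.38 ± 0.14 (SE, edgeR adjusted p = 1.09e-07). Free RNA would give 20.2% of its astrocyte-like level but 68.1% of its neuron-like level. Aldoa, the general form, had 268 and 274 CPM at ZT8 and 292 and 286 CPM at ZT20 against 117 and 121 CPM at ZT8 and 134 and 137 CPM at ZT20, a difference of 0.94 ± 0.06 (SE, edgeR adjusted p = 5.44e-17). With free RNA subtracted the Aldoa difference was -0.85 ± 0.16 (edgeR adjusted p = 0.00196), the opposite direction. The next enzymes behaved like Aldoa: free RNA would give 80.6 to 88.8% of the astrocyte-like level of Tpi1, Gapdh, Pgk1 and Pgam1, which carry triose phosphates to 2-phosphoglycerate. Their differences of 0.95, 0.97, 0.84 and 0.63 on the log2 scale became -0.10, -0.26, -0.49 and -1.48, and only Pgam1 of these 4 was still called.

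The enolases split by class. Eno1, the form of glia and most tissues, stood at 96.6 and 98.6 CPM at ZT8 and 85.3 and 105 CPM at ZT20 in astrocyte-like nuclei and at 34.1 and 36.1 CPM at ZT8 and 35.4 and 31.9 CPM at ZT20 in neuron-like nuclei, a log2 difference of 1.28 ± 0.09 (SE, edgeR adjusted p = 3.47e-17). Eno2, the neuron-specific enolase, was lower in astrocyte-like nuclei (log2 difference -0.26 ± 0.07, SE, edgeR adjusted p = 0.00181), but its ranges of 90.6 to 122 CPM and 108 to 115 CPM overlapped. Free RNA would give 89.8% of the astrocyte-like Eno2 level, and with it subtracted the difference was -2.86 ± 0.59. Pkm, the pyruvate kinase that ends glycolysis, went from 0.54 to -0.49 under the same subtraction.

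Lactate dehydrogenase is built from A subunits, which favour lactate, and B subunits, which favour pyruvate. Ldhb stood at 188 and 191 CPM at ZT8 and 171 and 170.1 CPM at ZT20 in astrocyte-like nuclei and at 63.4 and 63.6 CPM at ZT8 and 63.1 and 62.6 CPM at ZT20 in neuron-like nuclei, and the log2 difference was 1.31 ± 0.07 (SE, edgeR adjusted p = 4.17e-21). Microglia-like nuclei had 173 to 235 CPM of Ldhb and oligodendrocyte-like nuclei 93.6 to 105 CPM. Ldha had 32.8 and 32.7 CPM at ZT8 and 33.7 and 38.1 CPM at ZT20 against 17.1 and 18.7 CPM at ZT8 and 22.3 and 23.5 CPM at ZT20, a difference of 0.55 ± 0.12 (SE, edgeR adjusted p = 6.68e-05) that became -0.98 ± 0.46 (adjusted p = 0.107) with free RNA subtracted. In endothelial-like nuclei Ldha had 63.9 and 105 CPM at ZT8 and 142 and 145 CPM at ZT20.

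Monocarboxylate transporters move lactate across membranes. Slc16a7 encodes MCT2, the high-affinity lactate carrier of neurons, and stood at 99.8 and 101 CPM at ZT8 and 100.5 and 99.0 CPM at ZT20 in neuron-like nuclei. In astrocyte-like nuclei it had 8.95 and 8.60 CPM at ZT8 and 9.48 and 9.52 CPM at ZT20, a log2 difference of -3.66 ± 0.12 (SE, edgeR adjusted p = 6.37e-28), and free RNA would give all of that level (108%). It was not particular to neurons, since oligodendrocyte-like nuclei had 137 and 137 CPM at ZT8 and 123 and 123 CPM at ZT20 and microglia-like nuclei 144 and 156 CPM at ZT8 and 159 and 158 CPM at ZT20, and OPC-like nuclei (oligodendrocyte precursors) 86.1 to 118 CPM. Slc16a1, the MCT1 of vessels and glia, had 179.6 and 116 CPM at ZT8 and 231 and 259 CPM at ZT20 in endothelial-like nuclei. In astrocyte-like nuclei it stood at 24.5 and 26.9 CPM at ZT8 and 26.9 and 24.4 CPM at ZT20 against 12.1 and 11.7 CPM at ZT8 and 10.3 and 10.2 CPM at ZT20 in neuron-like nuclei, a log2 difference of 1.01 ± 0.14 (SE, edgeR adjusted p = 5.13e-08). Gm43581 and Gm43585 overlap Slc16a1 on the same strand. Slc16a3, the MCT4 through which astrocytes are known to export lactate, was scarce, at 0.527 to 2.98 CPM in astrocyte-like and 1.11 to 1.89 CPM in neuron-like nuclei, and was not called.

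Pyruvate dehydrogenase kinases, which switch off the entry of pyruvate into the citric acid cycle, were divided among the classes. Pdk4 stood at 10.7 and 13.8 CPM at ZT8 and 17.4 and 15.5 CPM at ZT20 in astrocyte-like nuclei, from 18, 24, 33 and 26 UMIs, and at 0.140 and 0.311 CPM at ZT8 and 0.0504 and 0.159 CPM at ZT20 in neuron-like nuclei. The log2 difference of 6.21 ± 0.40 (SE, edgeR adjusted p = 1.23e-17) was the largest of the 32. Pdk2 had 46.3 to 51.6 CPM in astrocyte-like and 10.2 to 11.1 CPM in neuron-like nuclei, a difference of 2.00 ± 0.12 (SE, edgeR adjusted p = 5.13e-19). Pdk3 went the other way, with 7.75 and 9.17 CPM at ZT8 and 9.48 and 7.73 CPM at ZT20 in astrocyte-like and 22.4 and 21.2 CPM at ZT8 and 20.8 and 19.9 CPM at ZT20 in neuron-like nuclei (-1.50 ± 0.17, SE, edgeR adjusted p = 2.08e-10), and oligodendrocyte-like nuclei had 44.8 and 42.8 CPM at ZT8 and 55.2 and 54.4 CPM at ZT20. Pdk1, a hypoxia-inducible kinase, was not called between the classes, with 31.5 to 34.4 CPM and 29.1 to 35.2 CPM, and stood at 128 and 96.9 CPM at ZT8 and 104 and 121 CPM at ZT20 in microglia-like nuclei.

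The kinases' target and the pyruvate carrier differed less. Pdha1, the catalytic subunit of pyruvate dehydrogenase that the kinases phosphorylate, was higher in astrocyte-like nuclei by 0.72 ± 0.09 (SE, edgeR adjusted p = 6.67e-09), and the call was lost with free RNA subtracted (0.33 ± 0.18). Pdhb, the other subunit of the same enzyme, had 49.3 to 55.5 CPM against 37.9 to 40.9 CPM and was not called. Mpc1 and Mpc2 form the mitochondrial pyruvate carrier. Mpc1 had overlapping ranges of 97.4 to 131 CPM and 122 to 132 CPM with a log2 difference of -0.32 ± 0.07 (edgeR adjusted p = 0.000165), and Mpc2, with 67.1 to 80.6 CPM against 44.3 to 48.2 CPM, went from 0.50 to 0.02 when free RNA was subtracted.

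ZT20 was then compared with ZT8 in neuron-like nuclei, that is, night with day. Of the 31 genes tested, 8 rose and 8 fell by edgeR's test, where 43.8% of all genes tested were called. The median log2 change was -0.03 over the 31 genes and 0.01 over all genes, and 1 of the 16 changes, that of Slc16a3, exceeded 1.5-fold. Pdk4 was too low to be tested. The libraries of the 2 times did not overlap in any of the 16, nor in 23 of the 31 tested, where 71.1% of all genes did not overlap.

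**Figure D4:**
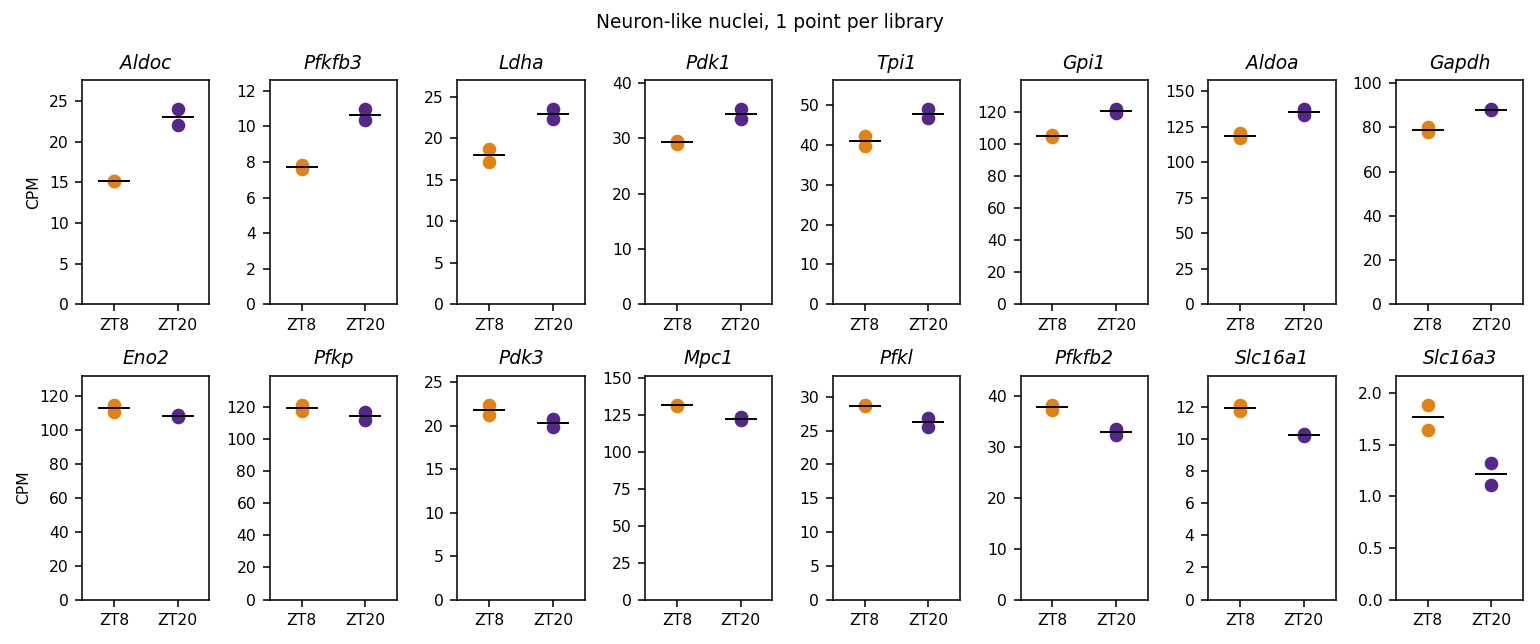
Level in neuron-like nuclei (CPM, y axes from 0) of the 16 genes called between the times, 1 point per library (orange ZT8, purple ZT20) with a black line at the mean of 2 libraries. The upper row rose and the lower row fell, and in each panel the points of the 2 times do not overlap.

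Of the genes that rose, Gpi1, Aldoa, Aldoc, Tpi1, Gapdh and Ldha are enzymes of the pathway itself, and Pfkfb3 and Pdk1 are regulators. Aldoc was at 15.1 and 15.1 CPM at ZT8 and 24.0 and 22.0 CPM at ZT20, a log2 change of 0.55 ± 0.06 (SE, edgeR adjusted p = 7.36e-09). Ldha was at 17.1 and 18.7 CPM at ZT8 and 22.3 and 23.5 CPM at ZT20 (0.29 ± 0.06, SE, edgeR adjusted p = 0.000149). Both ZT20 libraries were above both ZT8 libraries for each. Pfkfb3 had 7.63 and 7.81 CPM at ZT8 and 10.4 and 11 CPM at ZT20 and changed by 0.41 ± 0.08 (edgeR adjusted p = 0.000128). Gpi1 had 105 and 106 CPM at ZT8 and 119 and 121 CPM at ZT20 and changed by 0.14 ± 0.03 (edgeR adjusted p = 0.000114). These were small changes whose replicate libraries lay close together. Aldoa (0.13 ± 0.03), Tpi1 (0.16 ± 0.04), Pdk1 (0.18 ± 0.05) and Gapdh (0.10 ± 0.03) also rose, with edgeR adjusted p of 0.000183, 0.00215, 0.00227 and 0.00810. The call of Gapdh was lost without ZT8 replicate 1 or without ZT20 replicate 1.

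Of the genes that fell, Pfkfb2 and Pdk3 are regulators, Mpc1, Slc16a1 and Slc16a3 are carriers, and Pfkl, Pfkp and Eno2 are enzymes. Pfkfb2 had 38.3 and 37.4 CPM at ZT8 and 32.3 and 33.5 CPM at ZT20, a log2 change of -0.25 ± 0.04 (SE, edgeR adjusted p = 1.61e-05). Mpc1 had 131 and 132 CPM at ZT8 and 124 and 122 CPM at ZT20 (-0.15 ± 0.03, SE, edgeR adjusted p = 1.69e-05). Both ZT20 libraries lay below both ZT8 libraries for each. Slc16a1 had 12.1 and 11.7 CPM at ZT8 and 10.3 and 10.2 CPM at ZT20 and changed by -0.27 ± 0.07 (edgeR adjusted p = 0.00401). Slc16a3 had 1.65 and 1.89 CPM at ZT8 and 1.11 and 1.32 CPM at ZT20 from 59, 79, 44 and 50 UMIs and changed by -0.60 ± 0.20 (edgeR adjusted p = 0.0175), and the call was lost without ZT8 replicate 2 or without ZT20 replicate 1. Pfkl (-0.18 ± 0.05), Pfkp (-0.12 ± 0.03), Eno2 (-0.11 ± 0.03) and Pdk3 (-0.15 ± 0.06) fell as well, with edgeR adjusted p of 0.00316, 0.00136, 0.00160 and 0.0332. The call of Pfkl was lost without ZT20 replicate 2, that of Eno2 without ZT8 replicate 2, and that of Pdk3 without ZT8 replicate 1 or ZT20 replicate 2.

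The makeup of the neurons differed between the times, with fewer thalamic-like and more GABAergic-like nuclei (560, 555, 1114 and 1104) at ZT20. With the same number of nuclei drawn from each of 45 neuron clusters in every library, 1488 nuclei per library, 7 of the 31 genes were called, 6 higher and 1 lower, where 21.1% of all genes were called. Aldoa, Aldoc, Gpi1, Ldha, Tpi1 and Pfkfb2 were called as before, and Pkm (0.12 ± 0.04, edgeR adjusted p = 0.0163) was added. The change of Pfkfb3 was then -0.02 ± 0.11, that of Mpc1 0.03 ± 0.03 and that of Pfkp 0.02 ± 0.03, all with the opposite sign and none called.

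With the free RNA profile subtracted in neuron-like nuclei, 4 genes were higher and 7 lower, where 37.1% of all genes were called. The changes of Aldoc (0.37 ± 0.38), Ldha (0.15 ± 0.09), Aldoa (0.05 ± 0.04) and Tpi1 (0.08 ± 0.07) were no longer called, and that of Gapdh turned to -0.07 ± 0.05. These genes were also higher at ZT20 in the low-UMI cluster itself, where Aldoc had 156 and 192 CPM at ZT8 and 258 and 251 CPM at ZT20 and Ldha 119.8 and 108 CPM at ZT8 and 153 and 151 CPM at ZT20. Pfkfb3 (0.44 ± 0.10), Pdk1 (0.20 ± 0.05) and Gpi1 (0.17 ± 0.03) stayed called. Of the genes that fell, Slc16a1 (-0.19 ± 0.09), Slc16a3 (-0.49 ± 0.24) and Pdk3 (-0.14 ± 0.06) were no longer called. Pfkfb2, Pfkl, Pfkp, Mpc1 and Eno2 stayed called. Slc2a1 (0.36 ± 0.12), Eno1 (-0.26 ± 0.08) and Pgk1 (-0.21 ± 0.07) were added to the calls. Gpi1 and Pfkfb2 were the 2 of the 16 whose call and direction held in all 12 alternatives, including both steps together.

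**Figure D5:**
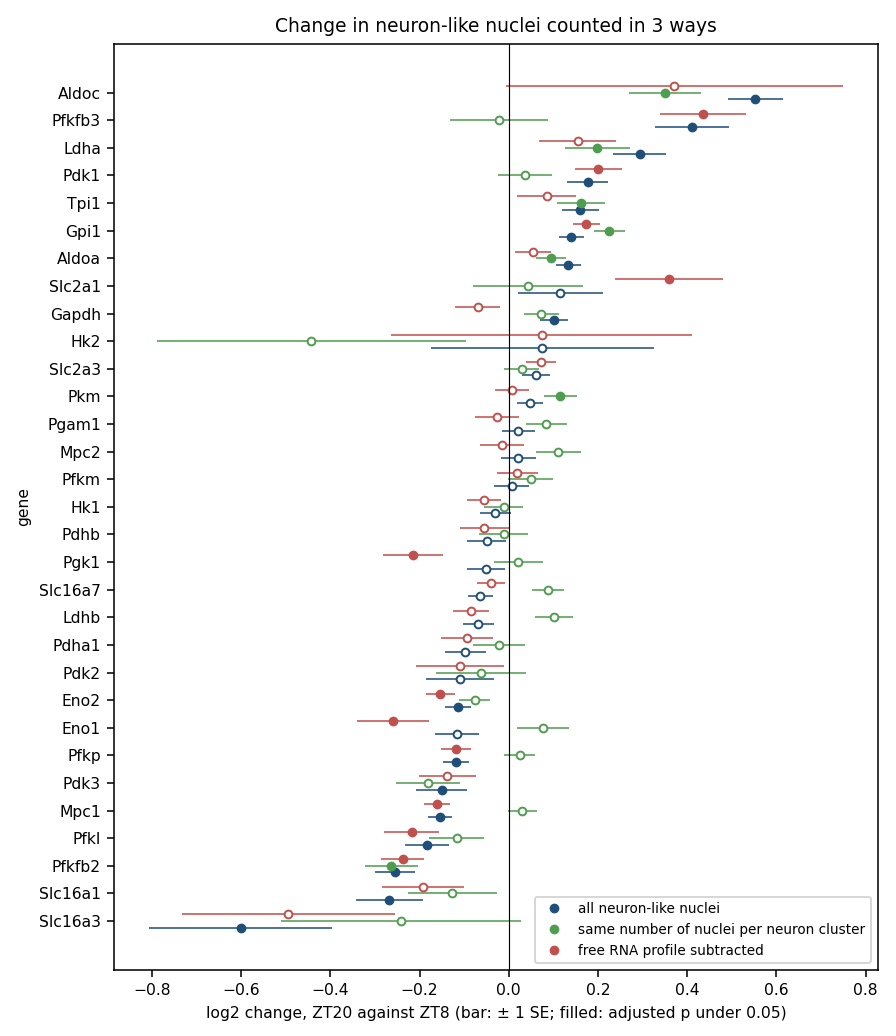
Log2 change from ZT8 to ZT20 in neuron-like nuclei for the 31 genes tested, with bars of 1 SE, counted over all neuron-like nuclei (blue), with the same number of nuclei per neuron cluster (green) and with the free RNA profile subtracted (red). Filled circles have an adjusted p under 0.05. Gpi1 and Pfkfb2 are filled in all 3, while Pfkfb3 moves to 0 in green and Aldoc, Ldha, Tpi1 and Aldoa become open in red.

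Other transcripts moved with the times in the same nuclei. In neuron-like nuclei the 13 mitochondrially encoded genes summed to 691 and 689.5 CPM at ZT8 and 1266 and 1216 CPM at ZT20 and the 80 ribosomal protein genes to 3419 and 3518 CPM at ZT8 and 4919 and 4965 CPM at ZT20. The 4 haemoglobin genes, markers of red blood cells, had 24.3 and 29.8 CPM at ZT8 and 49.5 and 44.8 CPM at ZT20. The 10 astrocyte markers, given above for these nuclei, were lower at ZT20 by their values. Their part in the changes of the glycolysis genes was not tested.

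The neuron classes were also compared one at a time. In thalamic-like nuclei, 10 of 31 genes rose and 1 fell, where 19.3% of all genes were called. Gpi1 stood at 97.0 and 97.4 CPM at ZT8 and 107 and 116 CPM at ZT20 (0.22 ± 0.04, edgeR adjusted p = 4.63e-05) and Aldoa at 107 and 114 CPM at ZT8 and 121 and 125 CPM at ZT20 (0.18 ± 0.04, edgeR adjusted p = 0.000462). Aldoc had 11.5 and 11.5 CPM at ZT8 and 17.0 and 14.0 CPM at ZT20 (0.46 ± 0.10, edgeR adjusted p = 0.000513). Ldhb had 59.4 and 59.3 CPM at ZT8 and 68.0 and 65.5 CPM at ZT20 (0.19 ± 0.05, edgeR adjusted p = 0.00205) and Pkm 102 and 107 CPM at ZT8 and 117 and 114 CPM at ZT20 (0.16 ± 0.04, edgeR adjusted p = 0.00215). The gene that fell was Pfkfb2, with 34.8 and 35.1 CPM at ZT8 and 26.4 and 27.1 CPM at ZT20 (-0.36 ± 0.07, edgeR adjusted p = 4.38e-05). Pgam1, Ldha, Slc16a7, Tpi1 and Gapdh rose too, by 0.13 to 0.30 on the log2 scale. The libraries of both times did not overlap for any of the 11, nor for 57.7% of all genes tested. The calls of Aldoc and Ldhb were lost without ZT20 replicate 1, that of Pkm without ZT8 replicate 1, those of Tpi1, Pgam1, Ldha and Slc16a7 without ZT8 replicate 1 or ZT20 replicate 2, and that of Gapdh without ZT8 replicate 2 or ZT20 replicate 2. Gapdh also lost it with the replicate number as a block and with more doublets removed. With free RNA subtracted, the calls of Aldoc (0.09 ± 0.84), Tpi1 (0.21 ± 0.09), Gapdh (0.07 ± 0.07) and Ldha (0.21 ± 0.12) were lost. Of the 11, only Gpi1, Pfkfb2 and Aldoa kept their calls with DESeq2. The calls of these 3 genes held in all 10 alternatives.

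In GABAergic-like nuclei none of 31 genes rose and 5 fell, a share of 16.1% where 17.8% of all genes were called. The libraries did not overlap for 25 of 31, against 58.5% of all genes. Pfkp had 132 and 142 CPM at ZT8 and 114 and 105 CPM at ZT20 (-0.33 ± 0.06, edgeR adjusted p = 0.000561), and Ldhb 77.1 and 81.2 CPM at ZT8 and 63.3 and 64.7 CPM at ZT20 (-0.32 ± 0.06, edgeR adjusted p = 0.00136). The calls of both held in all 10 alternatives. Eno2 had 125 and 132 CPM at ZT8 and 113 and 113 CPM at ZT20 (-0.19 ± 0.05, edgeR adjusted p = 0.0130). Slc16a1 (-0.49 ± 0.15) and Pdk3 (-0.31 ± 0.10) fell with edgeR adjusted p of 0.0298 and 0.0390. The calls of Eno2 (without ZT8 replicate 2 or ZT20 replicate 2), Slc16a1 (without either ZT8 replicate or ZT20 replicate 2) and Pdk3 (without any one library) were lost.

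The change was then tested for a difference between the 2 neuron classes, a test added after the data had been seen. It was called for 7 of 31 genes, all with a more positive change in thalamic-like nuclei, where 8.46% of all genes were called. For Ldhb the difference in log2 change was 0.50 ± 0.08 (SE, edgeR adjusted p = 1.84e-06), and for Pfkp 0.35 ± 0.06 (SE, edgeR adjusted p = 2.66e-05). Pgam1 (0.32 ± 0.08), Pkm (0.23 ± 0.06), Eno1 (0.37 ± 0.11), Gpi1 (0.21 ± 0.06) and Mpc1 (0.19 ± 0.06) were the others. Of the genes called in thalamic-like nuclei, Aldoa, Aldoc, Tpi1, Ldha, Gapdh, Pfkfb2 and Slc16a7 were not called in this test. The call of Ldhb held in all 9 alternatives, and DESeq2 called 1 of the 7, Ldhb, where it called 1.87% of all genes. With single libraries left out Pfkp also kept its call. Pgam1 lost it without ZT8 replicate 2, Pkm and Mpc1 without ZT8 replicate 2 or either ZT20 replicate, Gpi1 without either ZT8 replicate or ZT20 replicate 2, and Eno1 without any one library. Each class holds several clusters whose shares differed between the times, and their part was not tested.

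In astrocyte-like nuclei, the class in which glycolysis is best known, none of 30 genes was called between the times, where 6.50% of all genes were. The edgeR p-value before adjustment was under 0.05 for 5 of the 30 genes, a count not made over all genes. DESeq2 called 0 of the 30, and 1.51% of all genes. Slc2a1 had 58.5 and 46.4 CPM at ZT8 and 63.2 and 72.6 CPM at ZT20 (0.42 ± 0.16, edgeR adjusted p = 0.111). Slc2a3 had 34.0 and 34.4 CPM at ZT8 and 22.1 and 23.2 CPM at ZT20 (-0.54 ± 0.21, edgeR adjusted p = 0.138). The libraries of the 2 times did not overlap for either gene, which held for 20 of the 30 genes and for 48.1% of all genes. The 6 endothelial markers, whose cells are rich in Slc2a1, summed in astrocyte-like nuclei to 73.4 and 83.1 CPM at ZT8 and 16.3 and 25 CPM at ZT20, and their part in the Slc2a1 values was not tested. Aldoc, at 237 and 235 CPM at ZT8 and 210.1 and 217 CPM at ZT20, changed by -0.09 ± 0.08 (edgeR adjusted p = 0.612), and Pdk4 by 0.47 ± 0.29 (edgeR adjusted p = 0.415). These nuclei gave 1676564 to 1899227 UMIs per library, against 35789931 to 41843534 in neuron-like nuclei, and small changes are harder to detect at the lower depth.

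Whether the change differed between astrocyte-like and neuron-like nuclei was tested directly. It was called for 1 of 32 genes, where 3.50% of all genes were called. For Aldoc the log2 change in astrocyte-like nuclei minus that in neuron-like nuclei was -0.63 ± 0.11 (SE, edgeR adjusted p = 6.1e-06), and with the free RNA profile subtracted this was no longer called.

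The other glia gave no call in the main test. None of 30 genes was called in oligodendrocyte-like nuclei (10.5% of all genes called), none of 28 in OPC-like nuclei (1.04%) and none of 24 in microglia-like nuclei (0.754%). At an unadjusted p under 0.05 the counts were 2, 2 and 0, a threshold not counted over all genes. DESeq2 called 0 in each of the 3 classes. The libraries of the times did not overlap for 9 of 30, 12 of 28 and 11 of 24 genes in these classes, against 50.3%, 40.2% and 38.6% of all genes. In OPC-like nuclei Aldoc was called with the replicate number as a block (0.91 ± 0.26, edgeR adjusted p = 0.0451) and with more doublets removed (0.91 ± 0.26, edgeR adjusted p = 0.0494). In oligodendrocyte-like nuclei Pdha1 was called without ZT8 replicate 2 (-0.49 ± 0.16, edgeR adjusted p = 0.0403). Microglia-like Hk2, for instance, changed by 0.19 ± 0.13 (edgeR adjusted p = 0.697).

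Over all kept nuclei pooled, 15 of 32 genes were higher and 5 lower at ZT20, where 47.7% of all genes were called, and 27 of 32 did not overlap between the times, against 74.0% of all genes. In this pool, fewer cells of a type and less RNA per cell cannot be told apart, and the low-UMI cluster took 24.4 and 25.2% of barcodes at ZT8 and 38.2 and 46.4% at ZT20. Aldoc (0.59 ± 0.04) and Ldha (0.51 ± 0.05) changed most upward, with edgeR adjusted p of 4.52e-12 and 2.36e-08. With nuclei of named classes only, 8 were higher and 9 lower, where 44.2% of all genes were called. The changes of Pgk1, Eno1, Pgam1 and Pkm then turned negative.

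In the low-UMI cluster itself, 5 of 30 genes were higher and 3 lower at ZT20, where 15.7% of all genes were called, and 18 of 30 did not overlap between the times, against 54.9% of all genes. Aldoc changed by 0.58 ± 0.08 (edgeR adjusted p = 1.78e-07), Ldha by 0.47 ± 0.10 (edgeR adjusted p = 0.000307) and Gapdh by 0.20 ± 0.05 (edgeR adjusted p = 0.00298), and Aldoa, whose libraries overlapped, and Tpi1 also rose. Slc2a1 (-0.62 ± 0.20) and Slc16a1 (-0.66 ± 0.20), both highest in endothelial-like nuclei, were lower, and the 6 endothelial markers summed there to 124 and 135 CPM at ZT8 and 69.9 and 61.4 CPM at ZT20. Slc16a7 was lower as well (-0.50 ± 0.16).

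Further genes of the pathway, 59 of them, covering glycogen, the pentose phosphate route, other transporters and the hypoxia response, were counted beside the 32. In neuron-like nuclei, 7 of 52 tested were higher and 24 lower at ZT20, with a median log2 change of -0.11, where 43.8% of all genes were called. Bsg, which encodes basigin, the chaperone that brings MCT1 and MCT4 to the cell surface, changed by 0.45 ± 0.03 (edgeR adjusted p = 4.08e-14), and by 0.36 ± 0.04 (edgeR adjusted p = 1.19e-11) in matched neuron clusters. Pdp1, a phosphatase that reactivates pyruvate dehydrogenase, changed by -0.44 ± 0.03 (edgeR adjusted p = 7.56e-13), but in matched clusters its value was 0.07 ± 0.04 (edgeR adjusted p = 0.205), of the opposite sign and not called. Gbe1, the glycogen branching enzyme, changed by -0.54 ± 0.05 (edgeR adjusted p = 1.02e-10), and by -0.23 ± 0.06 (edgeR adjusted p = 0.00307) in matched clusters. In matched neuron clusters, 3 of 51 were higher and 5 lower, where 21.1% of all genes were called. In astrocyte-like nuclei none of 44 was higher and 3 were lower, where 6.50% of all genes were called.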

How the data were processed

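Raw UMI counts of genes by barcodes were deposited as 4 matrices, 2 per time. Per the file headers, the authors used Cell Ranger 7.0.0, and the submitters' processing notes name STAR 2.6 and mm10 as build. The treatment of intronic reads and the calling of barcodes are not given in the sources used here.

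Barcodes needed 500 detected genes and a mitochondrial share of UMIs no higher than 5%. Doublet scores came from Scrublet in scanpy 1.11.5 (Python 3.11.15). The threshold it set by itself would have marked only 2, 4 and 1 nuclei in 3 of the libraries and 707 in ZT8 replicate 2, so the highest scores were removed at 0.8% per 1000 nuclei (326 to 702 per library). Clustering used 3000 variable genes without the 32 genes, other pathway genes and mitochondrial genes, 40 principal components, 20 neighbours and Leiden (leidenalg 0.10.2, resolution 1). Of 40 clusters, 28 were named from markers, with score thresholds set after the clusters had been seen. Neurons were divided into 49 subclusters for matching.

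Sums of counts over the nuclei of each class in each library were tested with edgeR 4.0.16 (R 4.3.3): filterByExpr, TMM, robust quasi-likelihood F tests, two-sided, Benjamini-Hochberg adjustment over all genes, called at an adjusted p under 0.05. Class comparisons had library as a term. A class was tested where each library gave 50 or more nuclei. Alternatives were DESeq2 1.42.0, other filters, replicates left out, matched neurons and free RNA subtraction. The script was tested on simulated data. Genes named per library are those called with libraries that do not overlap, up to 10 per direction in neuron-like nuclei and between classes and 6 in other classes, with paralogues beside them; some of these are given by their change alone. The members and lists were chosen with earlier results of these data known. Of 32285 gene IDs, 32235 matched GENCODE release M21, among them all 32.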

Additional observations from a re-analysis of the deposited data

Results flagged for a closer look

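The change at ZT20 differed between classes of nuclei for 8 gene and class pairs, by a test of the class by time term in edgeR (adjusted p under 0.05). For Aldoc, the change in astrocyte-like nuclei minus that in neuron-like nuclei was -0.63 on the log2 scale. For the change in thalamic-like minus that in GABAergic-like nuclei, the values were 0.50 for Ldhb, 0.37 for Eno1, 0.35 for Pfkp, 0.32 for Pgam1, 0.23 for Pkm, 0.21 for Gpi1 and 0.19 for Mpc1. The first test called 1 of 32 genes, where 3.50% of all genes were called, and the second 7 of 31, where 8.46% were. The Aldoc call was lost with the free RNA profile subtracted. Of the 7, only Ldhb kept its call in all 9 alternatives. The second test was added after the data had been seen.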

How the results depend on the processing

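Of the 31 genes tested in neuron-like nuclei 16 were called, against 9 with DESeq2, 7 with the same nuclei per neuron cluster, 4 with free RNA subtracted as well and 1 above 1.5-fold, and 14 to 16 with 1 library left out. In astrocyte-like nuclei 0 were called, 1 (Eno2) with free RNA subtracted, and 0 to 0 with 1 library left out. In all nuclei pooled 20 were called, 1 above 1.5-fold, and 18 to 22 with 1 library left out. Over the 5 other classes the 16 calls became 5 with DESeq2, 0 above 1.5-fold, and 8 to 15 with 1 library left out (8 without ZT20 replicate 2, 9 without ZT8 replicate 1). Between astrocyte-like and neuron-like nuclei 28 were called, and 26 to 28 with 1 library left out. For the class by time term 1 was called, 0 with free RNA subtracted, and 1 to 1 with 1 library left out. The shares of all genes called moved too. In neuron-like nuclei they were 43.8%, and 21.1% with the same nuclei per neuron cluster. In astrocyte-like nuclei they were 6.50%, and 1.79% with free RNA subtracted. Between the classes 63.4% were called, in all nuclei 47.7%, and for the class by time term 3.50%. The matched draw had 1488 nuclei per library against 2382 to 2843, and the part of this lower number was not tested. The free RNA subtraction was chosen after seeing the data.

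Among genes called in the main test, signs turned as follows, on the log2 scale. In neuron-like nuclei with the same nuclei per neuron cluster, Pfkp was 0.0249, Pfkfb3 -0.0223 and Mpc1 0.0301, and with free RNA subtracted as well Pfkp was 0.0225, Pfkfb3 -0.0603, Aldoc -0.0264, Gapdh -0.0117 and Mpc1 0.0409. With free RNA subtracted alone Gapdh was -0.0695. In all nuclei, Pgk1 was -0.0357 and Eno1 -0.0851 under the stricter filter on nuclei, and Pgk1 -0.0949, Pgam1 -0.0133, Eno1 -0.0908 and Pkm -0.0045 in named classes only. Between the classes with free RNA subtracted, Aldoa was -0.85, Tpi1 -0.10, Gapdh -0.26, Pgk1 -0.49, Pgam1 -1.48, Pkm -0.49 and Ldha -0.98. The cause was not tested. Over 92 values of single genes and their 943 alternatives, 788 kept direction and side of the threshold, 133 lost a call, 0 gained one and 22 turned. The 92 values are those called in the main test, plus Slc2a1, Slc2a3, Aldoc and Pdk4 in astrocyte-like nuclei. Only the latter could gain a call here. Calls gained by other genes, such as Pkm in matched neuron clusters and Aldoc in OPC-like nuclei, are not in this count. DESeq2 gave no adjusted p for Slc2a3 and Pdk4 in astrocyte-like nuclei, which are left out.

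With the replicate number as a block, the counts were 16 in neuron-like, 0 in astrocyte-like, 20 in all nuclei and 16 over the other classes, as without it. Within the last, thalamic-like nuclei lost Gapdh (10 called against 11) and OPC-like nuclei gained Aldoc (1 against 0). The labels do not say if libraries of the same number share a day or litter. Across genes, deviations of same-numbered libraries correlated at -0.02 in neuron-like, -0.02 in astrocyte-like and -0.04 in all nuclei. So few libraries cannot show whether those of the same number were prepared together. With 2 libraries per time and fewer UMIs in glia, small changes there are harder to detect.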
